A study of Arabidopsis thaliana with 11 samples.

Results

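A group of 38 transcripts was lower on every tetraploid array than on both diploid arrays of Arabidopsis thaliana seedlings, and is described here on all 11 arrays of the ploidy series. They were chosen on that contrast. Probe sets are sets of short probes, each counted here as 1 transcript, although some are annotated with several genes. Of 22746 plant probe sets, those were taken with a mean diploid signal of at least 84 and a mean log2 difference of tetraploid minus diploid of -0.8 or lower. All tetraploid signals also had to lie below both diploid signals. A single further probe set met these limits and was left out by its ID; probe sets of UGT, DFR, XTH and chloroplast genes were also barred, but no probe set known here as one of these met the limits. Probe sets without a gene name could not be checked for this. Of the 7542 probe sets with a diploid mean of at least 84, 39 (0.517%) met the limits, against 119 of 7635 (1.56%) for the mirrored limits in the other direction. Because the diploid and tetraploid arrays made the choice, the fall itself is given as a description, with no test.

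RNA from whole plants of the ecotype C24, sampled at developmental stage 1.02, was measured on Affymetrix ATH1 arrays. The groups were untreated diploids (title code DIP, 2 chromosome sets, n = 2), triploids with the title code TFE (3 sets, n = 3), triploids with the title code TME (3 sets, n = 3), and tetraploids (title code TET, 4 sets, n = 3). The tetraploids had been made with colchicine, and both kinds of triploid were progeny of tetraploid and diploid parents; the labels do not spell out what TFE and TME stand for. All groups share the accession background, the stock code, 72 h of cold on the plate, growth on Murashige and Skoog agar, days of 16 h at 21 °C and nights of 8 h at 18 °C. Age in days is not given.

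A change in ploidy multiplies every nuclear gene at once, so that gene dosage stays balanced within the nucleus, while cell and nuclear volume grow with it. A triploid also carries an odd number of each chromosome and 2 doses of 1 parent's genome. Because every array is scaled to the same mean, a transcript that is lower here is lower relative to the rest of the RNA, not per cell. In whole seedlings a lower signal can come from fewer cells that make a transcript or from less of it per cell, and these cannot be told apart.

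Triploid TFE replicate 3 stood apart from the other arrays: its rank correlations with them were 0.861 to 0.88, against 0.942 to 0.973 among the other 10. The 3-prime to 5-prime signal ratio of actin, which reads RNA integrity, was 0.506 and 0.524 in diploids and 0.308 to 0.403 in tetraploids on 1 control set. On the other control set it was 2.23 and 2.44 in diploids and 1.54 to 2.3 in tetraploids, which overlap. On the first set, triploid TFE lay above the diploids (0.559 to 0.92) and triploid TME from 0.407 to 0.539. On the other set TFE replicate 3 was at 1.2, below both diploids, and the remaining triploid arrays were at 2.46 to 2.95. The same ratio for GAPDH was 0.913 and 1.12 in diploids and lower in all tetraploids, at 0.882, 0.895 and 0.723. It was 1.09 to 1.53 in triploid TFE and 0.971 to 1.11 in triploid TME. For ubiquitin the ratio was 1.49 and 1.86 in diploids, and the tetraploids lay between these, at 1.51, 1.56 and 1.65. There triploid TFE had 1.58 to 1.9 and triploid TME 1.52 to 1.64. The part of RNA quality in the differences below was not tested. Of 9 shoot markers 3 were measured, and their summed signal was 6716 and 9424 in diploids and 7359 to 8602 in tetraploids. RCA and PSAN make up most of that sum. The third, LHCB4.3, an antenna protein gene of photosystem II, was lower in tetraploids, with 497 and 576 in diploids and 296, 366 and 314 in tetraploids (log2 difference -0.72). It was also lower in triploids, by -0.52 for TFE and -0.40 for TME, and its part in the differences of the 38 was not tested. The only measured marker of 10 for roots, EXPA7, was close to the level at which dim probe sets were dropped, with 27.3 and 31.2 in diploids and 32.6 to 55.1 in tetraploids. Its part in the differences was not tested. The deposited values give 1 signal per probe set and no probe sequences, so the transcripts are shown here by name and signal.

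Of the 38 transcripts, 15 belonged to a probe set with 1 gene in the platform annotation, 1 to a set with several genes, and 22 to sets that carry no gene name here. Among the 15, the gene table gives a symbol of its own to TBL26 and BGLU28 and only the locus to the others; a role stated for a locus below is general knowledge and not from the files. The 15 genes lay on all 5 nuclear chromosomes (4, 2, 3, 3 and 3 genes), and the closest pair, AT1G47400 and AT1G47830, was 84 genes apart. The diploid means of the 38 ran from 85.3 to 1168 with a median of 166, and their tetraploid means from 10.5 to 636 with a median of 73.7. The fall was at least 2-fold for 18, and the median log2 difference was -0.95, against -0.03 over all probe sets with a diploid mean of at least 84. All 38 passed the filter on dim probe sets, which their diploid brightness made certain.

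**Figure D1:**
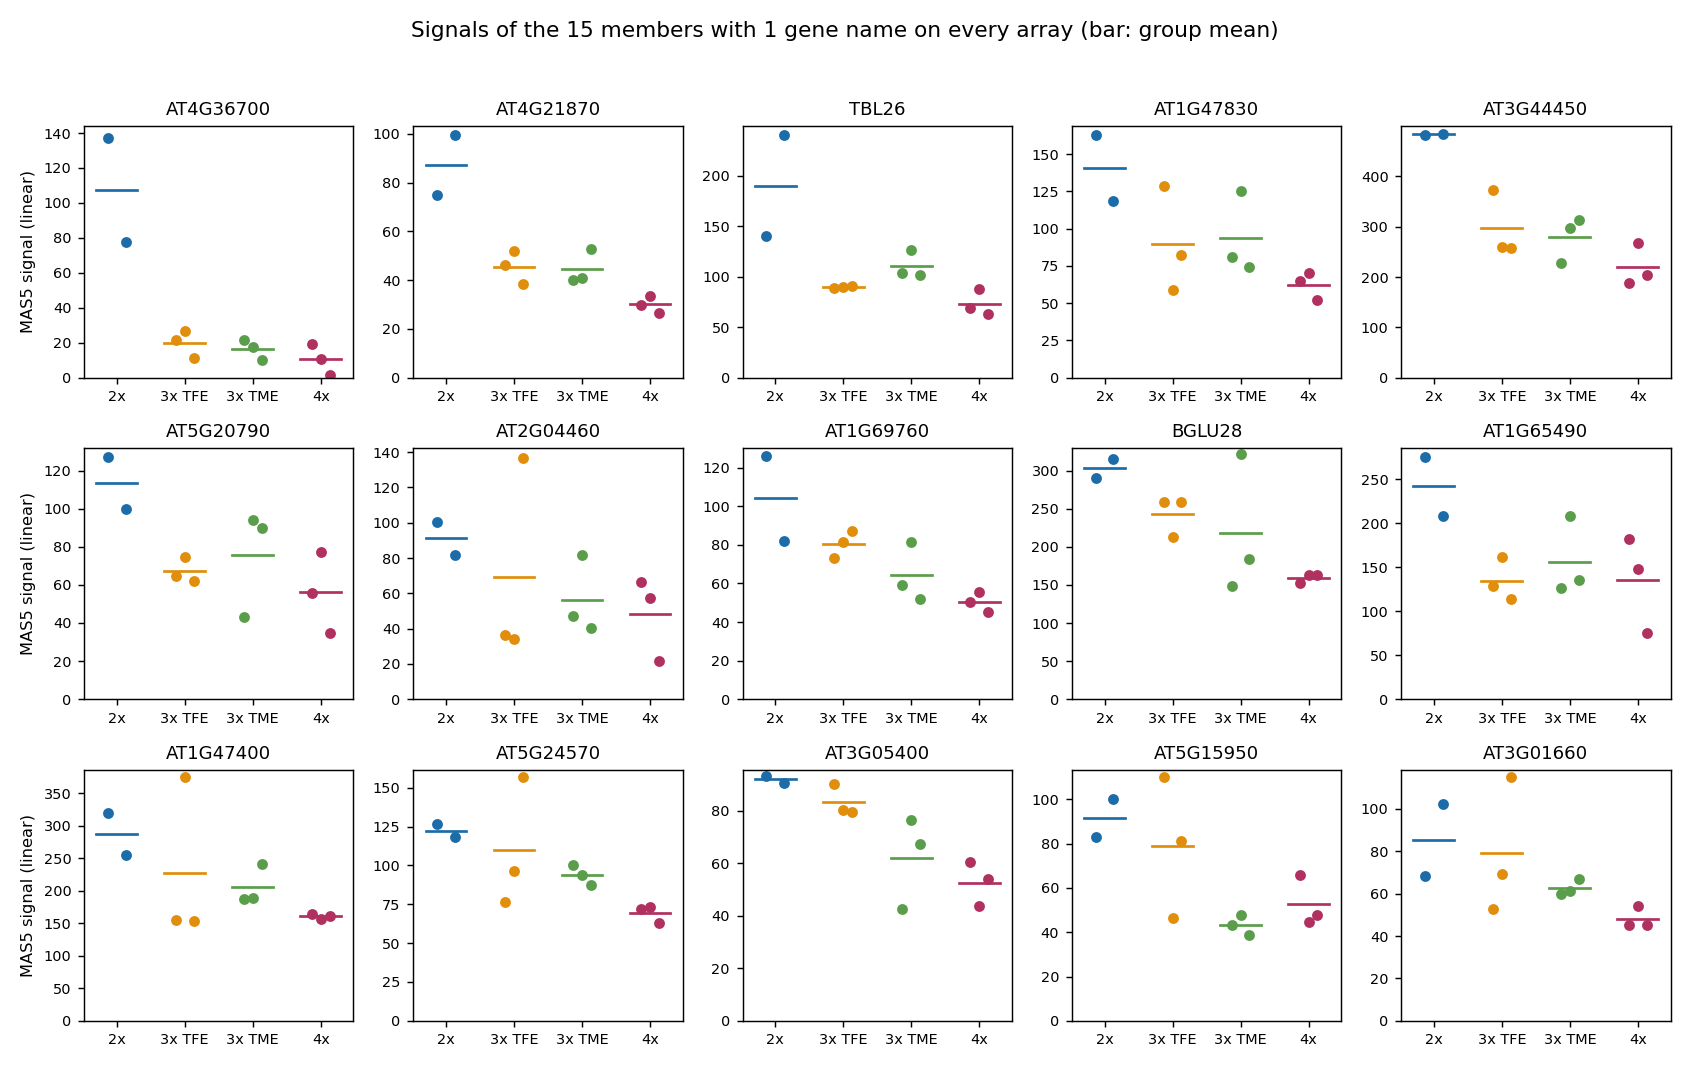
Each panel plots the MAS5 signal (linear scale from 0) of 1 of the 15 named genes on every array, in diploids (2x), triploids TFE and TME (3x) and tetraploids (4x); points are arrays and bars are group means. For AT4G36700 all polyploid arrays lie at or below 27, while for BGLU28 a TME array reaches 321 and exceeds both diploid arrays.

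The widest gap belonged to AT4G36700, which encodes a cupin protein related to the vicilin-type storage proteins of seeds. Its diploid signals were 137 and 77.4. In triploid TFE they were 21.3, 27 and 11, in triploid TME 21.5, 17.6 and 10.2, and in tetraploids 19.4, 10.7 and 1.29. No polyploid array came near the lower diploid, and the triploids overlapped the tetraploids. The log2 difference of tetraploids from diploids was -3.73, but all 9 polyploid signals lay below percentile 40 of their array and 1 tetraploid lay at the floor of 2.279, so its size is uncertain: with a floor of 16 it was -2.59. Of 15 storage protein genes listed, 5 had a named probe set, and the other 4, among them PAP85 with group means of 4.97 to 10.5, were dropped as dim.

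TBL26 and BGLU28 bear on wall and conjugated sugars. TBL26 is a member of the trichome birefringence-like family, whose studied members add acetyl groups to wall polysaccharides. Its signals were 140 and 240 in diploids, 88.7, 89.5 and 90.8 in triploid TFE, 104, 126 and 102 in triploid TME, and 68.5, 87.4 and 62.6 in tetraploids. The groups formed a full staircase without overlap, with diploids at the top, then TME, then TFE, then tetraploids. The tetraploid mean was 72.9 ± 13 (SD, n = 3) against a diploid mean of 190 ± 70.8 (SD, n = 2), a log2 difference of -1.35.

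BGLU28 encodes a beta-glucosidase, an enzyme class that cuts sugars from stored conjugates. The diploid signals were 291 and 315, those of triploid TFE 259, 213 and 259, those of triploid TME 149, 321 and 184, and those of tetraploids 153, 163 and 162. Diploids and tetraploids were each tight, while triploid TME spread across the whole range from below the tetraploids to above the diploids. The log2 difference of tetraploids from diploids was -0.93.

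Light and stress were represented by AT3G44450 and AT4G21870. AT3G44450 encodes an inhibitor of cryptochromes, the blue light receptors that steer seedling development. Its signals were 482 and 485 in diploids, 374, 260 and 258 in triploid TFE, 227, 297 and 313 in triploid TME, and 187, 267 and 204 in tetraploids. It was the brightest of the 15 named genes, every polyploid array lay below both diploids, and the triploids overlapped the tetraploids. The log2 difference of tetraploids from diploids was -1.16.

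AT4G21870 belongs to the family of small heat shock proteins, chaperones that hold unfolding proteins in a soluble state. Its signals were 75.1 and 99.5 in diploids, 46.1, 52.1 and 38.3 in triploid TFE, 39.9, 41 and 52.8 in triploid TME, and 29.9, 33.6 and 26.7 in tetraploids. All 6 triploid arrays lay between the tetraploids and the diploids, and the triploid codes overlapped. The log2 difference of tetraploids from diploids was -1.53.

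Several of the named genes serve transport or metabolism. AT1G47830 encodes the small subunit of a clathrin adaptor complex, which gathers cargo for uptake at the plasma membrane. Its signals were 163 and 119 in diploids, 129, 58.7 and 82.2 in triploid TFE, 80.7, 125 and 74.5 in triploid TME, and 64.7, 70.4 and 52.2 in tetraploids. A single array of each triploid code exceeded the lower diploid, and TFE replicate 2 fell among the tetraploids. AT1G47400 encodes a short peptide of the iron deficiency response. It had 320 and 254 in diploids, 155, 375 and 153 in triploid TFE, 188, 189 and 240 in triploid TME, and 165, 157 and 161 in tetraploids. TFE replicate 2 was the highest of all 11 arrays, while the other TFE arrays lay just below the tetraploids.

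AT5G15950 encodes an S-adenosylmethionine decarboxylase, an enzyme of polyamine synthesis. Its signals were 83.1 and 100 in diploids, 110, 46.6 and 81 in triploid TFE, 43.1, 47.6 and 39 in triploid TME, and 65.9, 44.5 and 47.9 in tetraploids. Here TME reached the tetraploid level or lower on all arrays, while TFE ran from the tetraploid level to above the diploids.

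AT3G05400, a sugar transporter of the major facilitator superfamily, had 93.2 and 90.7 in diploids, 90.1, 80.3 and 79.5 in triploid TFE, 42.7, 76.6 and 67.2 in triploid TME, and 60.5, 43.6 and 53.9 in tetraploids. The TFE arrays stayed close under the diploids and above all TME and tetraploid arrays.

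Of the remaining named genes, AT5G20790 had 127 and 100 in diploids, 64.7, 74.7 and 62.2 in triploid TFE, 43.1, 94.2 and 89.8 in triploid TME, and 56, 77.1 and 34.9 in tetraploids. Every polyploid array was below both diploids, and TME replicate 1 lay far under the other TME arrays. AT1G65490 had 275 and 208 in diploids, 128, 162 and 114 in triploid TFE, 126, 207.9 and 135 in triploid TME, and 183, 148 and 75.4 in tetraploids. Its tetraploids spread widely, and TME replicate 2 came within a fraction of the lower diploid. AT1G69760 had 126 and 81.9 in diploids, 72.9, 81.7 and 87.1 in triploid TFE, 59.3, 81.3 and 52.1 in triploid TME, and 50.2, 55.3 and 45.4 in tetraploids. The TFE arrays overlapped the lower diploid, and only the tetraploids kept clear of it by a margin.

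AT2G04460, listed as a pseudogene in the gene table, had 100 and 81.9 in diploids, 36.3, 34.1 and 137 in triploid TFE, 46.9, 81.7 and 40.4 in triploid TME, and 66.5, 57.4 and 21.5 in tetraploids. Its highest signal came from TFE replicate 3, the array that stood apart, and without that array TFE was below all but 1 of the tetraploids. AT5G24570 and AT3G01660 also had their highest signal on that array, at 157 and 115. On the other TFE arrays AT5G24570 had 76.7 and 96.1, below its diploids of 127 and 118, and AT3G01660 had 52.9 and 69.3, against diploids of 68.5 and 102. Their tetraploids were 72, 73 and 62.7 for AT5G24570 and 45.4, 54.1 and 45.1 for AT3G01660.

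The 23 transcripts without a single gene name were on the whole brighter, with a median diploid mean of 182 against 114 for the named ones. Their log2 differences of tetraploid from diploid ran from -2.02 to -0.83, with a median of -0.95. The probe set 251677_at had the lowest of these, with 160 and 130 in diploids, 40.3, 92.4 and 104 in triploid TFE, 33.1, 27.7 and 70.7 in triploid TME, and 42.7, 37.3 and 27.8 in tetraploids. The probe set 264751_at followed, with 281 and 252 in diploids, 121, 170 and 170 in triploid TFE, 131, 149 and 146 in triploid TME, and 104, 93.7 and 55.6 in tetraploids. The former ran from the tetraploid level up to 104 in TFE and 70.7 in TME, with all 6 triploid arrays below both diploids. The latter placed all 6 triploid arrays between tetraploids and diploids.

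**Figure D2:**
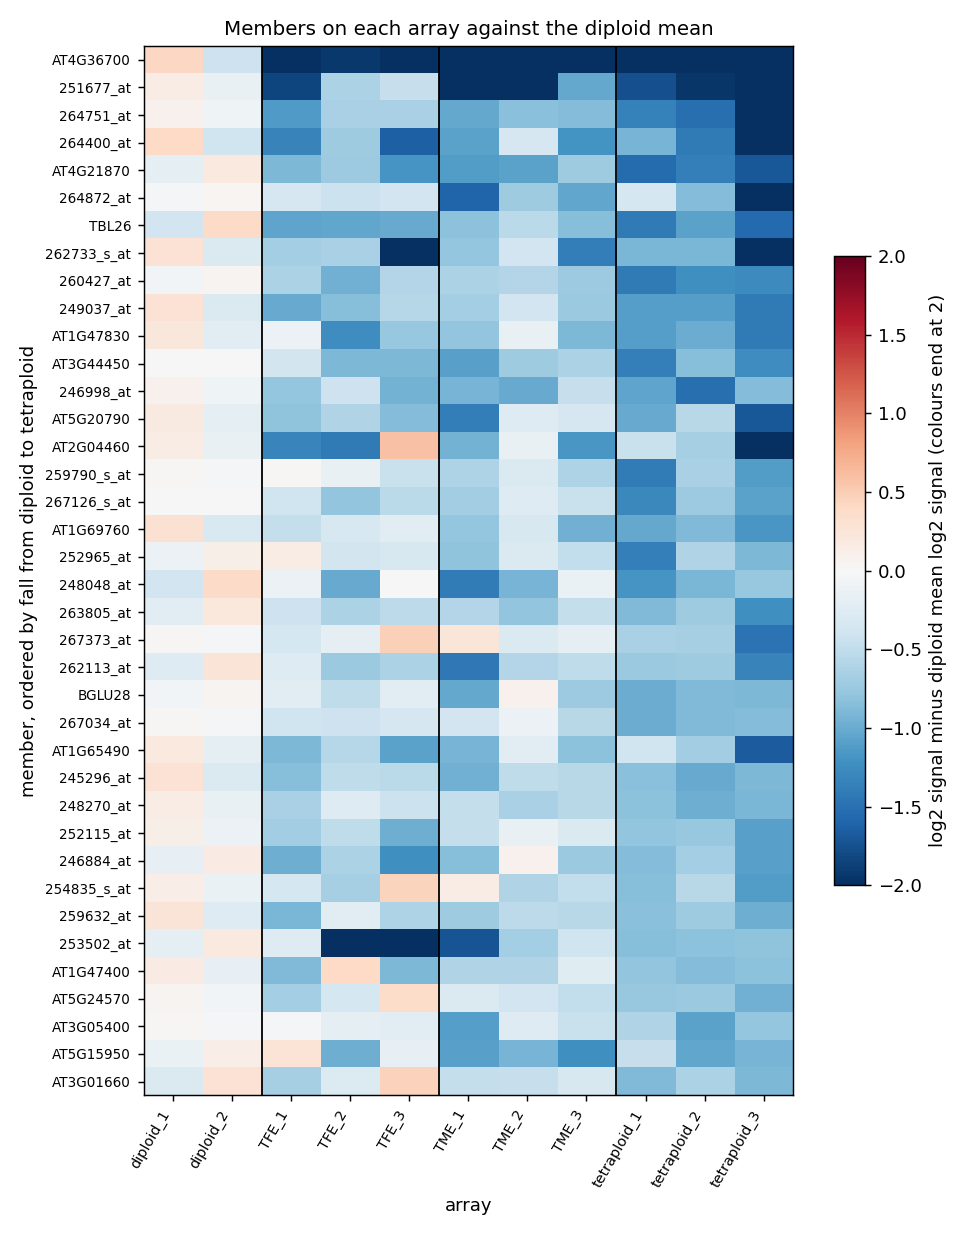
Rows are the 38 transcripts ordered by their fall, columns the 11 arrays, and colour is the log2 signal minus the mean log2 signal of the diploids, with colours ending at 2 in either direction. The tetraploid columns are blue throughout by choice of the transcripts; the triploid columns, which played no part in the choice, are mostly paler blue, with single red cells such as AT2G04460 and AT3G01660 on TFE replicate 3.

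The limits of the choice cut through a continuum. By the log2 difference, AT3G01660 was just inside with -0.80044 and the unnamed 249752_at just outside with -0.79971. By brightness, AT3G01660 was just inside with a diploid mean of 85.3 and AT5G18840 just outside with 79.3, although its log2 difference was -1.18. By separation, AT1G65490 was just inside with a lowest diploid of 208 and a highest tetraploid of 183, and 6 further probe sets failed only because the groups overlapped. For 17 of the 38 the lowest diploid was less than 1.5 times the highest tetraploid. With 1 array left out, the same limits were met by 61 probe sets without diploid replicate 1 and by 94 without diploid replicate 2, of which 26 and 30 were among the 38. They were met by 53, 60 and 27 without tetraploid replicate 1, 2 or 3, of which 36, 36 and 24 were among the 38. Of the 38, 14 met the limits in all 5 of these settings, among them the named genes TBL26, AT1G47830, AT3G44450 and BGLU28. Tetraploid replicate 3 was the lowest tetraploid for 23 of the 38, against 35.8% of all 7542 probe sets.

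The triploid arrays had no part in the choice and show where 3 chromosome sets lie. The means of both triploid codes were below the diploid mean for all 38 transcripts, against 58.7% of the 7542 probe sets for TFE and 53.7% for TME. Every TFE array was below both diploids for 25 of the 38, where 14.9% of the 7542 did so, and every TME array for 31, where 13.6% did so. All 6 triploid arrays were below both diploids for 22, with a background of 5.66%. These counts are set against the same 2 diploid arrays on which the transcripts were chosen as bright, which favours lower triploids, so no test is given for them. Without TFE replicate 3, the count for all TFE arrays was 30 and that for all remaining triploid arrays 25. Fewer arrays make this easier to meet for any probe set, and the background without that array was not computed.

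Toward the tetraploids, every TFE array was above all tetraploids for 15 of the 38, with a background of 9.44%, and every TME array for 16, with a background of 8.67%. The tetraploid arrays were chosen as low, which favours higher triploids in the same way. For 7 transcripts all 6 triploid arrays lay strictly between the tetraploids and the diploids, against 0.225% of the 7542. These were AT4G21870, TBL26 and 5 unnamed probe sets. The choice gave all 38 the needed order of tetraploids below diploids, and a probe set of the 7542 without that order cannot count. The shares therefore do not compare like with like. Without TFE replicate 3 the number was 9, with no background computed.

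Expressed as a share of the log2 difference between diploids and tetraploids, where 0% is the diploid mean and 100% the tetraploid mean, triploid TFE had a median of 56.2% and triploid TME of 61.5%. The quartiles were 34.8% and 68.8% for TFE, and 52.5% and 71.2% for TME. Both ends of this share rest on arrays chosen as high and as low, which favours triploid means between them, so no test is given. The single TFE arrays had median shares of 55.4%, 53.4% and 50%, and the TME arrays 72.9%, 46% and 58.1%. The difference between the codes is thus smaller than the spread between TME arrays. TFE was past the midpoint for 22 of the 38 and TME for 30; for 19 both were, and for 5 neither was. Over the 7542 probe sets the mean was below the midpoint in 56.4% for TFE and 50.1% for TME, and the TFE count is close to that share. Below the midpoint lies nearer to the tetraploids only where these were lower, so the background is not quite the same measure. Without TFE replicate 3 the TFE count was 28, with no background computed. For 11 transcripts only TME was past the midpoint, BGLU28, AT1G69760, AT3G05400, AT5G15950 and AT3G01660 among them, and for 3 only TFE was.

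**Figure D3:**
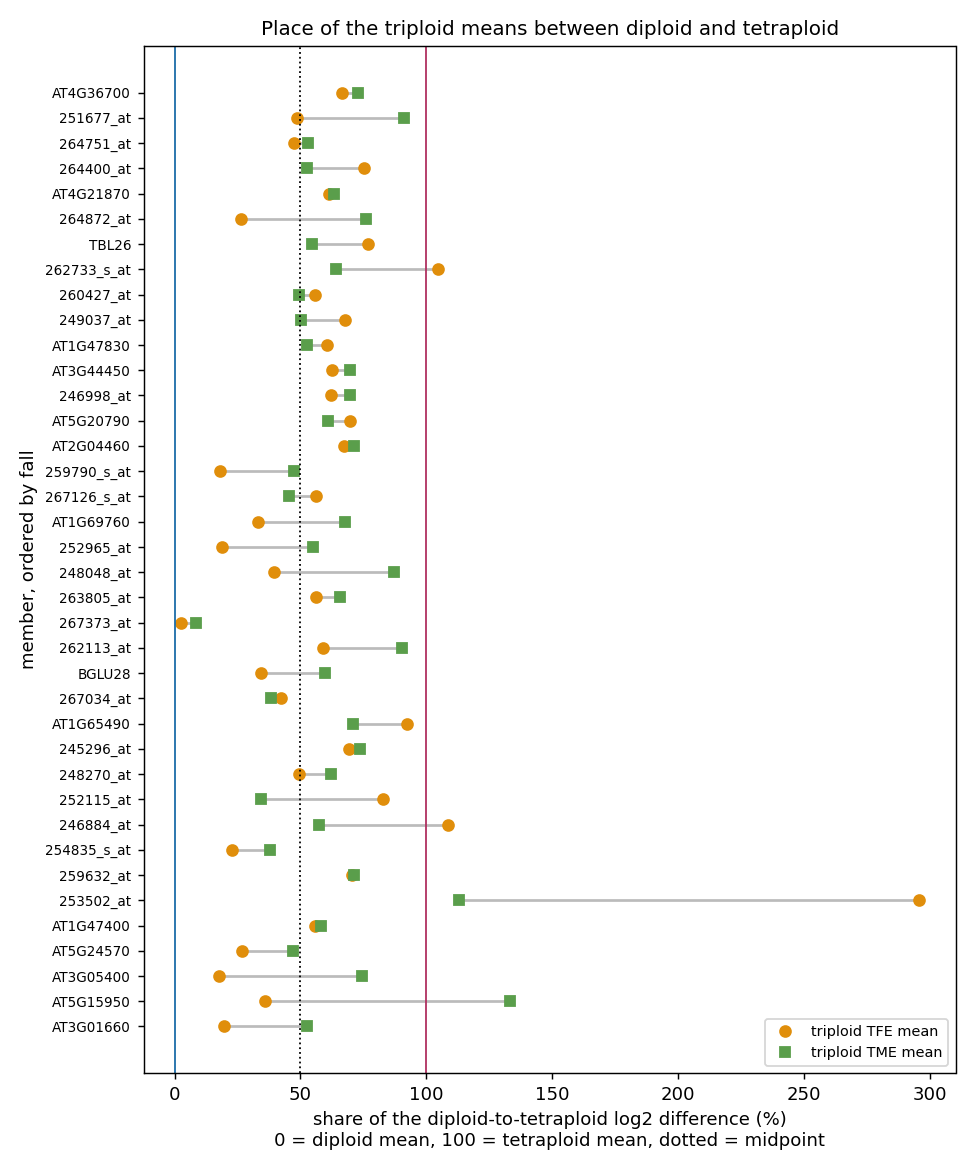
For each of the 38 transcripts, ordered by fall, the circle (TFE mean) and the square (TME mean) show the share of the diploid-to-tetraploid log2 difference in percent, with the diploid mean at 0, the midpoint dotted at 50 and the tetraploid mean at 100. Most means lie between 25 and 75; the unnamed 267373_at stays near the diploids in both codes, and 253502_at lies beyond the tetraploids at 113 for TME and 296 for TFE.

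Single transcripts lay far from these median shares. The unnamed 267373_at had shares of 2.38% in TFE and 8.52% in TME, so that its triploid means, 96.9 ± 31.2 and 91.4 ± 18.9 (SD, n = 3 each), were close to the diploid mean of 95.3 ± 1.95 (SD, n = 2). The tetraploid mean was 51.7 ± 15.1 (SD, n = 3). AT1G65490 had the highest TFE share among the named genes, 92.2%, with 70.9% in TME. TME passed the tetraploid mean for AT5G15950 (133%) and for 253502_at (113%), and TFE did so for 253502_at (296%), 246884_at (108%) and 262733_s_at (105%). The TFE value of 253502_at rested on signals of 13.9 and 4.93 on replicates 2 and 3, against 81.4 on replicate 1.

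Whether the 2 triploid codes differ in these transcripts is the 1 comparison whose means use only arrays outside the choice. Its spread was estimated over all 11 arrays, the diploids and tetraploids included; on the 6 triploid arrays alone the count was again 0, with a smallest adjusted p of 0.669. Of the 38, limma called 0 (Benjamini-Hochberg over all 15075 probe sets kept, threshold 0.05), and their smallest adjusted p was 0.409. It called 4 of the 15075 (0.0265%), with TFE higher in 0.00663% and lower in 0.0199%. At an unadjusted p under 0.05 there were 4 of the 38, against a background of 10.6%. The TFE mean was higher for 25 of the 38 and lower for 13 (34.2%), where 57% of the 7542 probe sets were lower in TFE. The median log2 difference of TFE minus TME was 0.07, against -0.04 over the 7542 probe sets. Without TME replicate 1 that median was -0.02 and without TFE replicate 3 it was 0.02. This does not show that the codes are alike: the 95% intervals had a median half-width of 0.47 log2 units, and for 29 of the 38 they stayed within 1 log2 unit on both sides of 0.

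**Figure D4:**
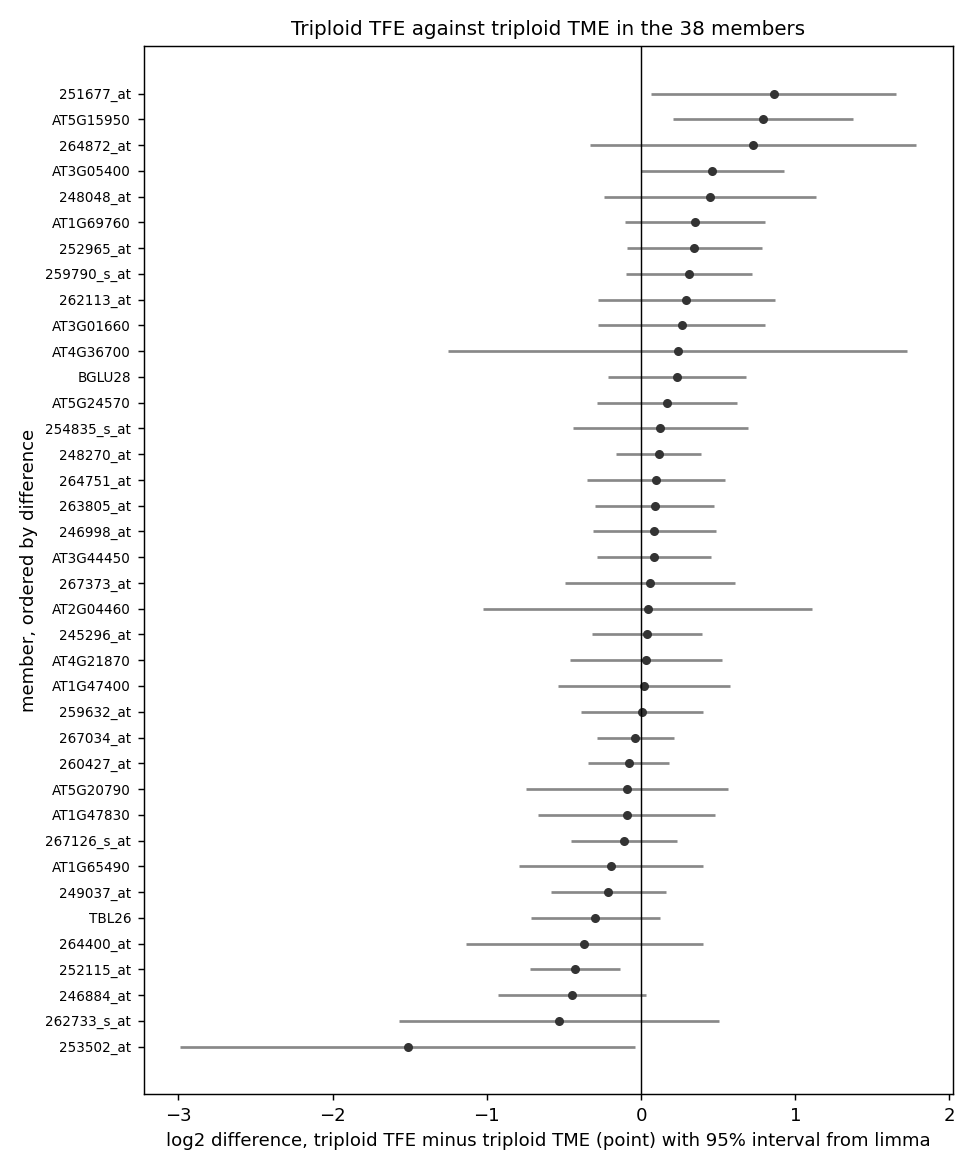
Points give the log2 difference of triploid TFE minus triploid TME for each of the 38 transcripts and lines its 95% interval from the limma fit, ordered by difference. Most intervals include 0, and the 4 that do not belong to transcripts with an adjusted p of 0.409 or more.

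The 5 largest differences toward TFE were those of 251677_at (0.86), AT5G15950 (0.79), 264872_at (0.73), AT3G05400 (0.46) and 248048_at (0.45). AT5G15950 had a mean of 79.1 ± 31.7 in TFE and 43.2 ± 4.33 in TME (SD, n = 3 each), which is 0.79 ± 0.27 (SE) on the log2 scale, with a limma adjusted p of 0.409. AT3G05400 had 83.3 ± 5.91 and 62.2 ± 17.5 (SD, n = 3 each) or 0.46 ± 0.22 (SE) on the log2 scale, with a limma adjusted p of 0.474. Without TME replicate 1 the difference of AT3G05400 was 0.21 and that of 248048_at was 0.16. That of 248048_at was also 0.26 without TFE replicate 3, and it was 0.77 without TFE replicate 2 and 0.79 without TME replicate 3. That of AT5G15950 was 0.51 without TFE replicate 1. For AT3G05400 and 264872_at every TFE array was above every TME array, 2 of the 38, where 6.35% of the 7542 probe sets did the same.

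The 5 largest differences the other way were those of 253502_at (-1.51), 262733_s_at (-0.53), 246884_at (-0.45), 252115_at (-0.43) and 264400_at (-0.37), all without a single gene name. The bright 252115_at had a mean of 709 ± 113 in TFE and 949 ± 111 in TME (SD, n = 3 each), with a limma adjusted p of 0.409. Single arrays carried much of the other differences. Without TFE replicate 3 that of 262733_s_at was 0.18, that of 253502_at was -0.59 and that of 264400_at was -0.17. Without TME replicate 2 that of 246884_at was -0.16 and that of 264400_at was -0.10. The value of 253502_at was -2.61 without TFE replicate 1, and that of 264400_at was -0.62 without TFE replicate 2. Every TFE array was below every TME array for 252115_at and TBL26, 2 of the 38, against 8.66% of the 7542. For TBL26, TFE minus TME was -0.30 ± 0.20 (SE) on the log2 scale, with a limma adjusted p of 0.574.

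Within triploid TME the 38 were unevenly spread over the arrays, and whether they varied together was not tested. TME replicate 2 was the highest TME array for 23 of the 38 and TME replicate 1 the lowest for 19, while over the 7542 probe sets these shares were 33.2% and 36.4%. Within TFE the spread was nearly even, with replicates 1, 2 and 3 highest for 11, 13 and 14 and lowest for 11, 13 and 14. TFE replicate 3 was thus the lowest for 36.8% of the 38, against 52.4% of the 7542. The median log2 difference of the 38 from the diploid mean was -0.83 on TME replicate 1, -0.48 on replicate 2 and -0.59 on replicate 3. On the TFE arrays it was -0.66, -0.64 and -0.56, and on the tetraploids -0.92, -0.87 and -1.14. TFE arrays were thus nearer to each other in this measure than TME arrays were, although TFE replicate 3 stood apart over all probe sets. The median over all 15075 probe sets stayed between -0.005 and 0.022 on every array, while those of the 38 were all at or below -0.48 on the polyploid arrays. For the tetraploids this follows from the choice, and diploids chosen as bright favour lower triploids. Over the 7542 probe sets the median difference from the diploid mean was -0.05 for the TFE mean and -0.01 for the TME mean.

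Fixed lists of gene families and pathways, chosen with earlier results of these data known, were read beside the 38. Of the TBL family, 23 probe sets had 1 gene and 16 were kept, of which 9 were lower in tetraploids than in diploids, with a median log2 difference of -0.05, against 0.01 over all probe sets kept. The share of all probe sets kept that were lower was not computed, so the count of 9 is not read as a result about the family. Besides TBL26, the lowest were TBL37 with -0.65 and TBL45 with -0.60, while TBL39 had 0.38. Of 18 genes of blue light and UV-B response only 3 had a named probe set. AT3G52740 had a mean of 111 in diploids, 79.6 in TFE, 94 in TME and 91.6 in tetraploids, and the transcription factor gene HYH, dropped as dim, had 24.3, 12, 19.7 and 6.84.

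Among the small heat shock proteins 8 probe sets were named and 3 kept. AT5G37670 and AT2G29500, the kept ones besides AT4G21870, had log2 differences of tetraploid minus diploid of -0.10 and 0.09. Of 7 ABC1K kinases, a family of plastid and mitochondrial proteins, 3 were measured: AT3G24190 narrowly missed the limits with -0.72, and the others had 0.05 and 0.22. None of the kept genes on these lists differed between TFE and TME (limma, adjusted p under 0.05), where 0.0265% of all probe sets kept did.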

How the data were processed

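Signals of 11 ATH1 arrays were used as deposited: linear intensity values, 1 per probe set, made by the authors with MAS5 (version not given), according to the submitters' processing notes. The 2% trimmed mean was 100.01 on every array, so all had been scaled alike; detection calls were not used here. No 2 arrays were identical, and the number of arrays limits the precision. Separate sowings are not stated for replicates: p-values then cover only the spread among these arrays, which may be technical. Array numbers follow the groups in runs, and handling order and group cannot be told apart.

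Of 22810 probe sets 64 controls were set aside. Signals were floored at 2.279, percentile 10 of the plant values, and converted to log2. The 15075 probe sets above percentile 40 of their array on at least 2 arrays entered a limma fit (limma 3.58.1, R 4.3.3; 4 group means, variances with an intensity trend; Benjamini-Hochberg, 2-sided). Fold changes are on this log2 scale. On simulated arrays of 15075 probe sets for TFE versus TME, 100 changes of 1 log2 unit and 100 of 2 were built in. Of these, 68% and 90% were recovered, with 13 false calls. On the real arrays only 4 of the 15075 were called. There AT5G15950 (0.79) and 251677_at (0.86) had limma adjusted p of 0.409 and 0.46. The simulated shares cannot be read as the recovery on the real arrays, which was not tested. Genes were named by platform annotation, updated from the gene table of TAIR10.1, which gave 1 gene for 13513 plant probe sets, several for 503 and none for 8730. Coordinates are left out because the array's build is not given here.

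Every chosen transcript with 1 gene is named, with the 5 largest differences between TFE and TME each way, the 2 unnamed ones with the lowest differences, those at the limits and up to 3 members of each gene list; other unnamed probe sets were singled out after their values were seen. The transcripts and lists were chosen with earlier results of these data known. Other settings changed the floor, normalization, filter, trend, weights, covariates and arrays.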

Additional observations from a re-analysis of the deposited data

How the results depend on the processing

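The number of transcripts meeting the limits was 38 with a floor of 16 and with quantile normalization. It ran from 27 to 94 when each diploid or tetraploid array was left out in turn. The median share reached in TFE was between 51.2% and 60.2%, and that in TME between 54.6% and 70.5%, with single arrays left out; the other settings moved either by less than the spread between arrays. No transcript was called between TFE and TME under any of 20 settings; their smallest adjusted p ran from 0.056, without TFE replicate 1, to 1 with spiked-in controls as a covariate. The median difference ranged from -0.02 to 0.15 with a triploid array left out. Of 200 values of the 10 named differences, 197 kept their direction and side of the threshold. Settings that changed only the filter, the trend, the replicate block or the diploid and tetraploid arrays could not alter these differences. Neither could the fit on the triploid arrays alone, so much of this count was fixed in advance. The difference of 262733_s_at turned from -0.53 to 0.027 with array weights, to 0.056 with the level of spiked-in controls as a covariate and, with 1 triploid array left out, ranged from -0.89 to 0.18, the latter without TFE replicate 3. Among values that kept their direction, the covariate took 253502_at to -0.43, 252115_at to -0.26 and 264400_at to -0.0072, and array weights took 264400_at to -0.18 and 248048_at to 0.17. With the replicate block 0 transcripts were called, 5 had an unadjusted p under 0.05, and the median difference was 0.07. Same-numbered TFE and TME arrays deviated with correlations of -0.058, 0.098 and 0.02. TFE replicates 1 and 3 correlated better with another number, while 0.098 was the largest of all correlations between TFE and TME arrays. These values cannot show whether replicate numbers pair the samples. Deviations within each group of 3 are tied to each other, and TFE replicate 3 stood apart. The counts without TFE replicate 3 were added after seeing the data, and no background over all probe sets was computed for them. The number of transcripts with TFE past the midpoint was 28 without that array, against 22 with it. Signals near the floor, as in AT4G36700, have no exact ratio, and 7 of the 38 had an array below percentile 40.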
